A study of Homo sapiens with 5 samples.

Results

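The genes described here encode 10 enzymes of glycolysis: HK1, HK2, PFKP, ALDOA, TPI1, GAPDH, PGAM1, ENO2, LDHA and LDHB. They were chosen by Ensembl identifier from a list of named enzymes. The rule uses no measured value, but the list was drawn up with earlier results of these data known. All 10 were found among the 20001 genes with an identifier in the deposited table. The table does not pair identifiers with names, so the names are those given with the list. The order of the 10 identifiers in the table was the order of the 10 named genes along the chromosomes in RefSeq (GRCh38.p14). Nascent RNA was measured by PRO-seq, in which engaged RNA polymerases run on with biotin-labelled nucleotides, so that each read marks a polymerase at work and not mRNA that has built up. The cells were HEK293T, a line from human embryonic kidney with the SV40 large T antigen. They were monoclonal lines holding a landing pad, a genomic site made to receive inserted DNA, with the CAG promoter (3 libraries) or the PGK promoter (2 libraries). CAG is a strong synthetic promoter, and PGK is taken from the gene of phosphoglycerate kinase, itself a glycolytic enzyme. Neither the number of clones per promoter nor the origin of the replicates (separate cultures or not) is given in the labels. Promoter and clone therefore cannot be told apart, and the spread behind each p-value may be technical.

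Glycolysis converts glucose to pyruvate in the cytosol, and lactate dehydrogenase turns pyruvate into lactate. Cultured tumour-like and immortalised lines commonly run this pathway at a high rate, and its genes are known targets of the transcription factors MYC and HIF-1. Several steps are served by paralogous enzymes with tissue-specific expression, such as HK1, found in most tissues, and HK2, typical of muscle, fat and many tumours.

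A binding sequence of MYC was looked for in the promoters because the choice of genes did not use promoter sequence. The motif CACGTG, the E-box that MYC and its relatives bind, reads the same on both strands and contains ACGTG, the core of the HIF-1 site. RefSeq promoter windows (GRCh38.p14, from 250 bases before to 50 bases after an annotated start) were matched for all 10 genes by symbol, 24 windows in total. CACGTG occurred in at least 1 window of 4 of the 10 genes, HK2, ALDOA, GAPDH and LDHA, against 8.77% of all 27305 genes with a window and 10.9% of the 15843 protein-coding ones. The 6 matches are shown with 9 bases on each side, 5′ to 3′, and capitals mark the motif:
HK2, 194 bases before the start: tgctgcgccCACGTGggagggagc
HK2, 149 bases before the start: cggcgagagCACGTGgagagaatc
ALDOA, 112 bases before the start: cagggaggcCACGTGatccgagtc
GAPDH, 81 bases before the start: ctgcggggtCACGTGtcgcagagg
LDHA, 185 bases before the start: ctcccagcgCACGTGgagcagtct
LDHA, 87 bases before the start: cccgactcaCACGTGggttcccgc
All 6 lie on the plus strand of GRCh38.p14. The HK2 stretches are at chr2:74834967-74834990 and chr2:74835012-74835035, and that of ALDOA is at chr16:30064376-30064399. The GAPDH stretch is at chr12:6535174-6535197, and those of LDHA are at chr11:18394369-18394392 and chr11:18394467-18394490. HK1 had 7 windows and PFKP had 4, none with CACGTG. Other motifs were also counted, on both strands. ACGTG occurred in 7 of the 10 genes, against 24.9% of all genes with a window and 28.5% of the protein-coding ones. GGGCGG occurred in 10 of the 10, against 48.3% and 64.3%. Which annotated start is used in these cells was not analysed, and a gene with several windows has more chances of a match.

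The libraries held 4873883, 5003130 and 5864157 counts in the CAG line and 5582070 and 3712105 counts in the PGK line. The 10 genes together took 0.12%, 0.122% and 0.123% of counts in the CAG libraries and 0.124% and 0.114% in the PGK libraries. Levels below are CPM, counts relative to the library size after TMM scaling, which corrects for differences in composition. Gene lengths were not used, so levels are compared between lines and never between genes. The markers of HEK293T and of other cell types were not analysed here, because only the 10 enzymes could be named.

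The 10 genes did not change in a single direction between the lines. Of the 10 genes, 3 were higher in the CAG line (PFKP, ENO2 and GAPDH), 2 were lower (HK1 and HK2), and ALDOA, TPI1, PGAM1, LDHA and LDHB did not pass the test. ENO2 passed the filter on low counts only through CAG libraries, as described below. Calls are those of edgeR's quasi-likelihood test of CAG over PGK, with a Benjamini-Hochberg adjusted p under 0.05 over all 13400 genes tested. Across all genes tested, 43.4% were called, 22.7% higher and 20.7% lower, so a count of 5 in 10 is near the background. The median log2 fold change was 0.05 over the 10 genes and -0.01 over all genes tested, and the median size of the change was 0.19 and 0.25. The summed level of the 10 genes was 1208 ± 15.7 CPM in the CAG line (SD, n = 3) and 1206 ± 27.4 CPM in the PGK line (SD, n = 2). In such bulk libraries, fewer transcribing cells and fewer polymerases per cell cannot be told apart.

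**Figure D1:**
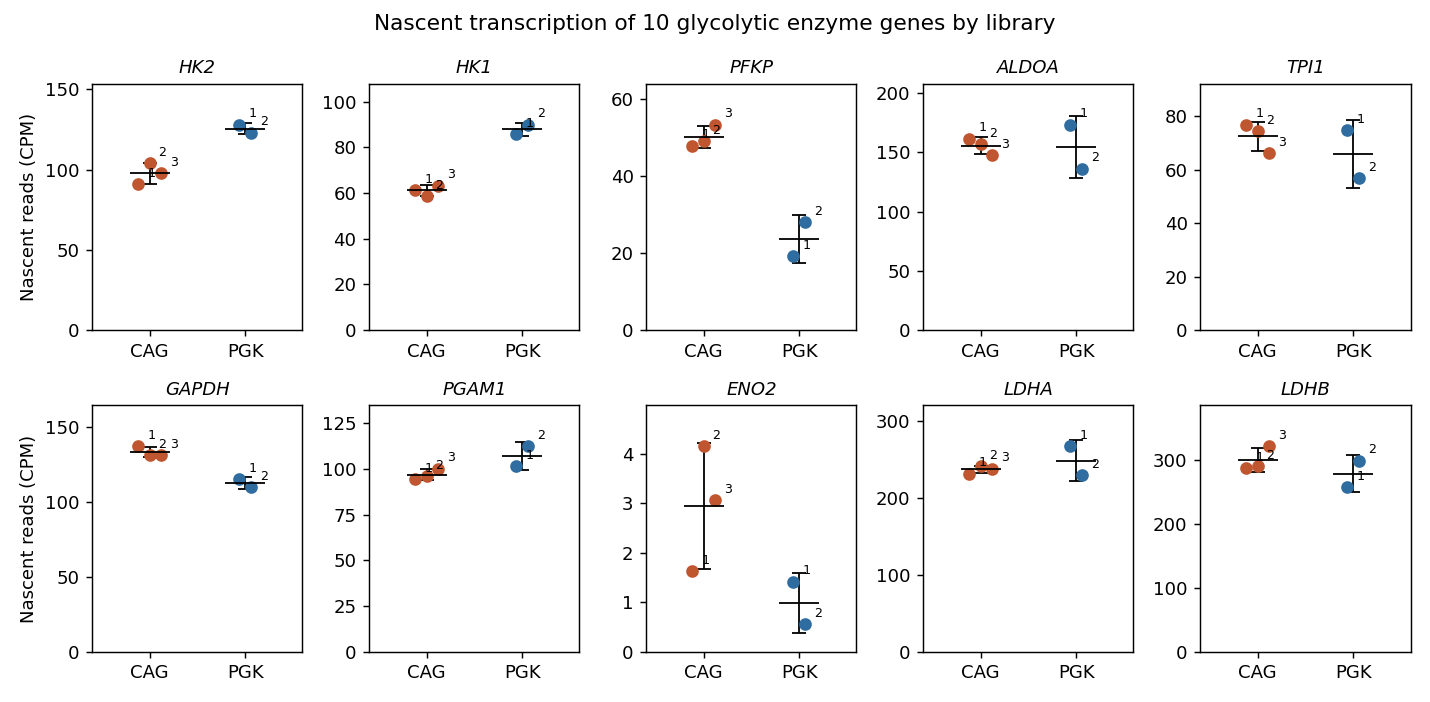
Nascent reads (CPM) of each of the 10 genes in the CAG libraries (left) and the PGK libraries (right) of each panel, on linear axes that start at 0. Points are libraries with their replicate number, and bars are the mean ± SD (n = 3 and n = 2). The lines stand apart for HK1, HK2, PFKP and GAPDH, whereas the PGK and CAG libraries overlap for ALDOA, TPI1, LDHA and LDHB.

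Hexokinase phosphorylates glucose and so holds it in the cell. HK1 (ENSG00000156515) was at 61.4, 58.7 and 63.3 CPM in the CAG libraries and 85.8 and 90.0 CPM in the PGK libraries. All CAG libraries lay below both PGK libraries. The mean was 61.2 ± 2.29 CPM in the CAG line (SD, n = 3) and 87.9 ± 2.96 CPM in the PGK line (SD, n = 2), a log2 fold change of -0.52 ± 0.08 (SE, edgeR adjusted p = 1.14e-05). In linear terms HK1 was 1.43-fold lower in the CAG line. HK2 (ENSG00000159399) was at 91.1, 104 and 98.0 CPM in the CAG libraries and 128 and 123 CPM in the PGK libraries. These groups did not overlap either, and the log2 fold change was -0.36 ± 0.07 (SE, edgeR adjusted p = 0.000221), which is 1.29-fold lower in the CAG line. Both enzymes of this first step fell. HK1 is encoded on chromosome 10 and HK2 on chromosome 2.

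The balance of the pair was not shown to shift. The ratio of HK2 to HK1 counts within a library, which does not depend on scaling, was 1.48, 1.77 and 1.55 in the CAG libraries and 1.49 and 1.37 in the PGK libraries. The values overlap, and the log2 difference of 0.16 had p = 0.4 in an exact two-sided permutation test, where 3 against 2 libraries cannot give less than 0.2. With 2 such pairs tested, the adjusted p was 0.6.

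Phosphofructokinase makes fructose 1,6-bisphosphate and is the main point of control of the pathway, and PFKP is its platelet-type isoform. PFKP (ENSG00000067057) was at 47.8, 49.0 and 53.3 CPM in the CAG libraries and 19.1 and 28.0 CPM in the PGK libraries. Every CAG library was above both PGK libraries, and the PGK libraries themselves differed. The mean was 50.0 ± 2.86 CPM in the CAG line (SD, n = 3) and 23.6 ± 6.29 CPM in the PGK line (SD, n = 2). The log2 fold change was 1.14 ± 0.13 (SE, edgeR adjusted p = 1.52e-07), a 2.197-fold rise. Only 5.5% of all genes tested had a larger change.

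Enolase makes phosphoenolpyruvate, and ENO2 is the neuronal isoform. ENO2 (ENSG00000111674) was barely transcribed, with 8, 21 and 18 counts in the CAG libraries and 8 and 2 counts in the PGK libraries. That is 1.63, 4.15 and 3.06 CPM in the CAG libraries and 1.42 and 0.561 CPM in the PGK libraries, so the lowest CAG library and the higher PGK library nearly met. The log2 fold change was 1.43 ± 0.50 (SE, edgeR adjusted p = 0.022). Over all libraries of a line, 47 counts in CAG stood against 10 in PGK, a 2.73-fold ratio with a 95% interval for counting error of 1.36 to 6.06. ENO2 passed the filter on low counts only through 2 CAG libraries and through 0 PGK libraries, so it was tested only through the line in which it was higher. The call was lost with DESeq2 (adjusted p = 0.122) and with a replicate block (edgeR adjusted p = 0.0592). In the alternatives with both PGK libraries that tested ENO2, the adjusted p ran from 0.00632 to 0.122. The gene was not tested without CAG replicate 2 or CAG replicate 3, or with a minimum of 1 CPM in every library. Its log2 fold change was 2.34 without PGK replicate 1 and 1.05 without PGK replicate 2. Such fits keep 1 PGK library, so their p-values hold no spread of that line and are not given. RefSeq places a long noncoding RNA gene partly over ENO2, whose reads could not be told apart from it here.

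The next enzymes split fructose 1,6-bisphosphate and interconvert the resulting triose phosphates. ALDOA (ENSG00000149925), the aldolase of muscle and most cultured cells, was at 162, 157 and 148 CPM in the CAG libraries and 173 and 136 CPM in the PGK libraries. The PGK libraries lay on either side of all CAG libraries, and the log2 fold change was -0.01 with a 95% interval of -0.18 to 0.17 (edgeR adjusted p = 0.953). TPI1 (ENSG00000111669), triosephosphate isomerase, had 76.9, 74.4 and 66.2 CPM in the CAG libraries and 75.0 and 56.9 CPM in the PGK libraries. The groups overlap, and the log2 fold change of 0.11 had a 95% interval of -0.10 to 0.31 (edgeR adjusted p = 0.419). For TPI1 the lower PGK library decided the value: without PGK replicate 1 the log2 fold change was 0.33, and without PGK replicate 2 it was -0.05. RefSeq places the protein-coding gene SPSB2 partly over TPI1 and an uncharacterised protein-coding gene over ALDOA, so reads of both pairs may be mixed. It also places a small nucleolar RNA gene within PFKP and a ribosomal protein pseudogene within HK1.

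GAPDH (ENSG00000111640), which oxidises glyceraldehyde 3-phosphate and serves as a common reference gene for expression, was slightly higher in the CAG line. It was at 137, 131 and 132 CPM in the CAG libraries and 115 and 110 CPM in the PGK libraries, with no overlap. The means were 133 ± 3.35 CPM in the CAG line (SD, n = 3) and 113 ± 3.90 CPM in the PGK line (SD, n = 2). The log2 fold change was 0.24 ± 0.07 (SE, edgeR adjusted p = 0.00726), a 1.18-fold rise, and 51.0% of all genes tested had a larger change. The call was lost without CAG replicate 1 (edgeR adjusted p = 0.0503) and with DESeq2 (adjusted p = 0.0602). Over the alternatives with both PGK libraries the adjusted p ran from 0.00295 to 0.0602. RefSeq lists 65 pseudogenes named after GAPDH, the most of the 10 genes, with 13 for PGAM1 and 6 for LDHA, and how reads matching several copies were counted is not given in the sources used here.

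PGAM1 (ENSG00000171314), phosphoglycerate mutase, moves the phosphate before the enolase step. It was at 94.4, 96.3 and 100.2 CPM in the CAG libraries and 102 and 112 CPM in the PGK libraries. All CAG libraries lay below the PGK libraries by a small margin, and the log2 fold change of -0.13 with a 95% interval of -0.29 to 0.02 did not pass the test (edgeR adjusted p = 0.156). Without PGK replicate 1 the log2 fold change was -0.22, and without PGK replicate 2 it was -0.06. Counting PGAM1, the lines did not overlap for 6 of the 10 genes, 3 in each direction, against 61.2% of all genes tested. These include ENO2, which passed the filter on low counts only through the line in which it was higher.

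Lactate dehydrogenase regenerates NAD+ by reducing pyruvate, with LDHA encoding the M subunit of muscle and LDHB the H subunit of heart. LDHA (ENSG00000134333) was at 232, 242 and 238 CPM in the CAG libraries and 267 and 230 CPM in the PGK libraries. LDHB (ENSG00000111716) was at 288, 291 and 322 CPM in the CAG libraries and 258 and 300 CPM in the PGK libraries (300.2 ± 18.7 CPM, SD, n = 3, in CAG and 279 ± 29.1 CPM, n = 2, in PGK). Neither gene separated the lines. The log2 fold change was -0.07 for LDHA, with a 95% interval of -0.23 to 0.09 (edgeR adjusted p = 0.497), and 0.11 for LDHB, with an interval of -0.06 to 0.28 (edgeR adjusted p = 0.303). Both signs turned with the PGK library used. Without PGK replicate 1 the values were 0.04 for LDHA and -0.01 for LDHB. Without PGK replicate 2 they were -0.17 for LDHA and 0.22 for LDHB. The ratio of LDHA to LDHB counts was 0.805, 0.830 and 0.740 in the CAG libraries and 1.03 and 0.766 in the PGK libraries. PGK replicate 1 alone stood above the CAG libraries, and the exact two-sided permutation test gave p = 0.6 (adjusted p = 0.6).

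**Figure D2:**
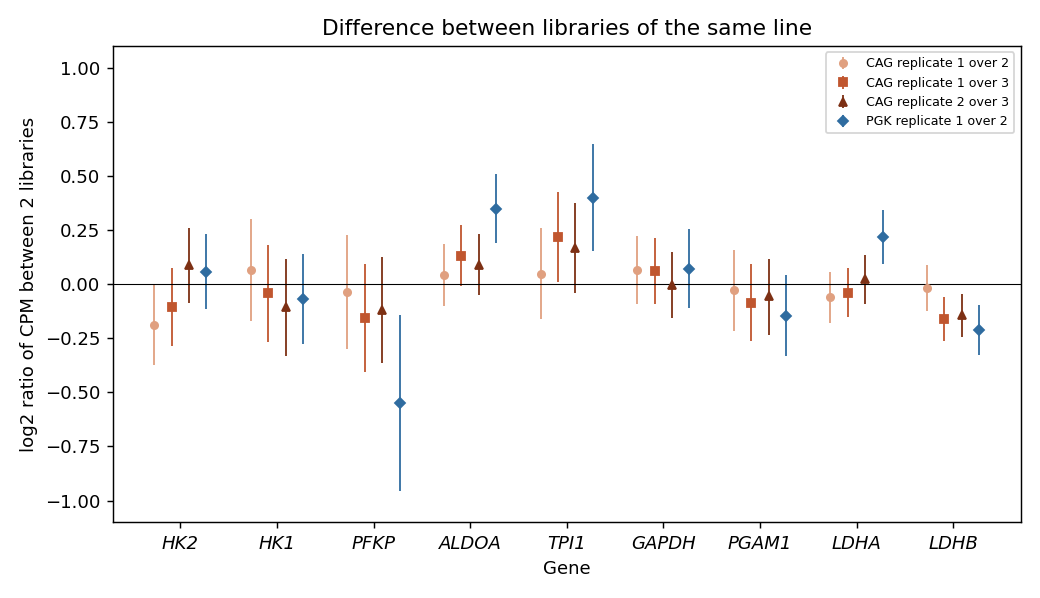
Log2 ratio of CPM between 2 libraries of the same line for 9 of the 10 genes, with exact 95% intervals for counting error. ENO2 is left out because its intervals are much wider. PGK replicate 1 over replicate 2 (blue diamonds) leaves 0 for PFKP, ALDOA, TPI1, LDHA and LDHB, whereas most CAG ratios include 0.

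The libraries of the PGK line differed from each other at several of these genes. PGK replicate 1 over replicate 2 gave a log2 ratio of 0.40 for TPI1, 0.35 for ALDOA and 0.22 for LDHA. In the other direction stood PFKP at -0.55 and LDHB at -0.21. For these 5 genes the exact 95% interval for counting error excluded 0. It did so for 19.5% of all genes tested, and genes with fewer counts have wider intervals. In the CAG pairs it excluded 0 for 2 of the 10 genes between replicates 1 and 2 (6.73% of all genes tested), 2 between replicates 1 and 3 (7.45%) and 1 between replicates 2 and 3 (10.7%). Over all genes tested, the log2 ratio was taken from log2 CPM with a prior count of 2, which damps ratios of low counts. Its SD was 0.329 in the PGK pair and 0.224 to 0.233 in the CAG pairs. By that damped ratio, between 8.14% and 35.8% of genes tested differed more between the PGK libraries than each of these 5 did by its undamped ratio. PGK replicate 2 was also the shallowest library, and the part of depth in these differences was not tested.

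Ratios between the 10 genes, formed within each library, gave an account free of scaling. Each gene has 9 ratios to the others. All 9 use the counts of that gene, so they are not independent of each other or of its fold change. How often ratios of other genes separate the lines was not computed. PFKP was higher in the CAG line with no overlap between lines in 8 of its 9 ratios, the exception being that to ENO2. HK1 and HK2 were each lower with no overlap in 8 of 9 ratios, the exception being the ratio to each other. GAPDH was higher in 5 ratios, lower in 1 and overlapping in 3. The number of PFKP counts per HK1 count can be read from the inverse ratio: HK1 counts were 1.29, 1.20 and 1.19 times PFKP counts in the CAG libraries and 4.48 and 3.21 times in the PGK libraries. Transcription of PFKP relative to HK1 was thus greater in every CAG library than in either PGK library. Each gene already separated the lines, in opposite directions, so this ratio had to separate them and adds no support. The same holds for every ratio of HK1, HK2 or PGAM1 to PFKP, GAPDH or ENO2, all counted above. ENO2 passed the filter on low counts only through CAG libraries, so ratios to it carry that limit too. The other phosphofructokinase genes, PFKL and PFKM, were not analysed here.

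Because the order of the table follows the genome for these genes, each gene was set beside the 10 tested rows on each side. Over all genes tested, 22.7% were called higher and 20.7% lower. PFKP lay among rows that were mostly higher in the CAG line, 17 of 20 called higher and 1 lower, with a median log2 fold change of 0.43. PFKP itself, at 1.14, stood 0.71 above that median. HK1 lay among rows that were mostly lower, 12 of 20 called lower and 0 higher, with a median of -0.22, and stood -0.30 from it. PGAM1 also had lower neighbours, with a median of -0.29, and was itself at -0.13. These 3 genes are all on chromosome 10, so their neighbourhoods differed in direction along a single chromosome.

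The median of the neighbouring rows was 0.08 for HK2, -0.05 for GAPDH and 0.01 for ENO2, whereas the genes themselves were at -0.36, 0.24 and 1.43. The value for ENO2 carries the limit given above, since it passed the filter only through the line in which it was higher. GAPDH, TPI1 and ENO2 lie near each other on chromosome 12, and TPI1 and ENO2 share most of their neighbours, yet TPI1 was at 0.11 and ENO2 at 1.43. Within the middle 50% of their neighbours lay 4 of the 10 genes, PGAM1, LDHA, TPI1 and ALDOA, none of which was called. LDHB, also not called, lay outside, at 0.11 against quartiles of -0.27 and 0.03. No test was made of the distance from neighbours, and the share of all genes tested that lie within this range was not computed.

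**Figure D3:**
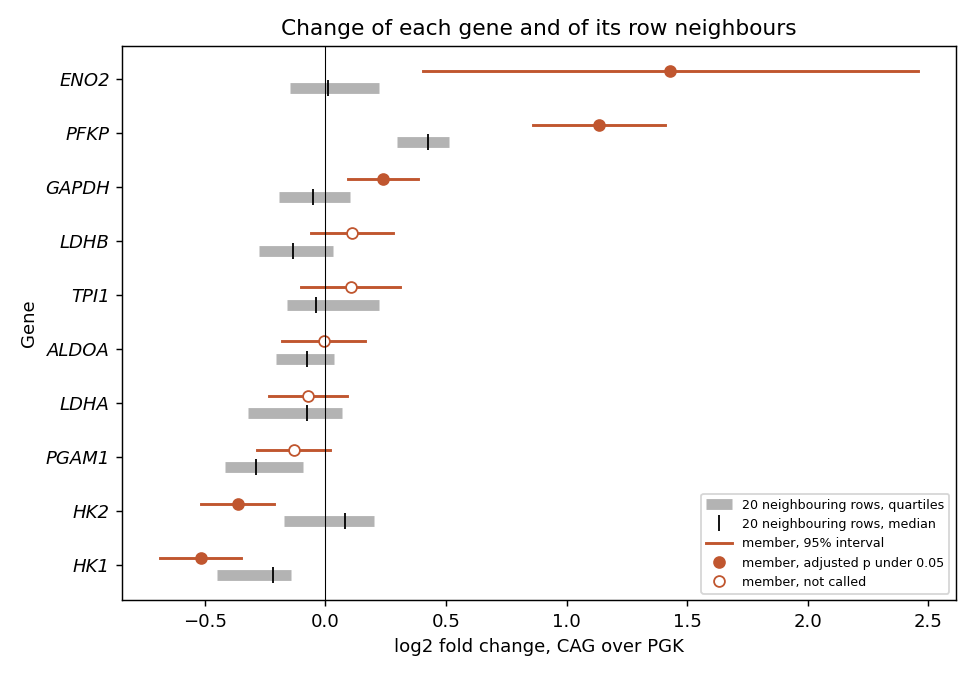
Log2 fold change (CAG over PGK) of each gene with its 95% interval, above the quartiles and median of the 20 neighbouring tested rows (grey bar and tick). Filled points passed an adjusted p of 0.05, and PFKP, ENO2, GAPDH, HK1 and HK2 are the 5 filled ones. These 5 and LDHB (open) lie outside the grey bar of their neighbours.

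The 4 genes with an E-box in a promoter window, shown above, did not share a direction. Their log2 fold changes were -0.36 for HK2, -0.07 for LDHA, -0.01 for ALDOA and 0.24 for GAPDH. PFKP and HK1, the strongest rise and fall by p-value, had no such match in their windows.

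Genes with a profile over the 5 libraries most like that of the extreme members were found by the Euclidean distance of centred log2 CPM, as a description only. For HK1, the largest fall, the nearest were ENSG00000116698 (distance 0.031, log2 fold change -0.51) and ENSG00000156831 (distance 0.041, log2 fold change -0.55). For ENO2, the largest rise, they were ENSG00000175318 (distance 0.343, log2 fold change 1.21) and ENSG00000247746 (distance 0.466, log2 fold change 1.25), a looser match. ENO2 was tested only through the line in which it was higher. Like fold changes follow from choosing like profiles, so they add no support.

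**Figure D4:**
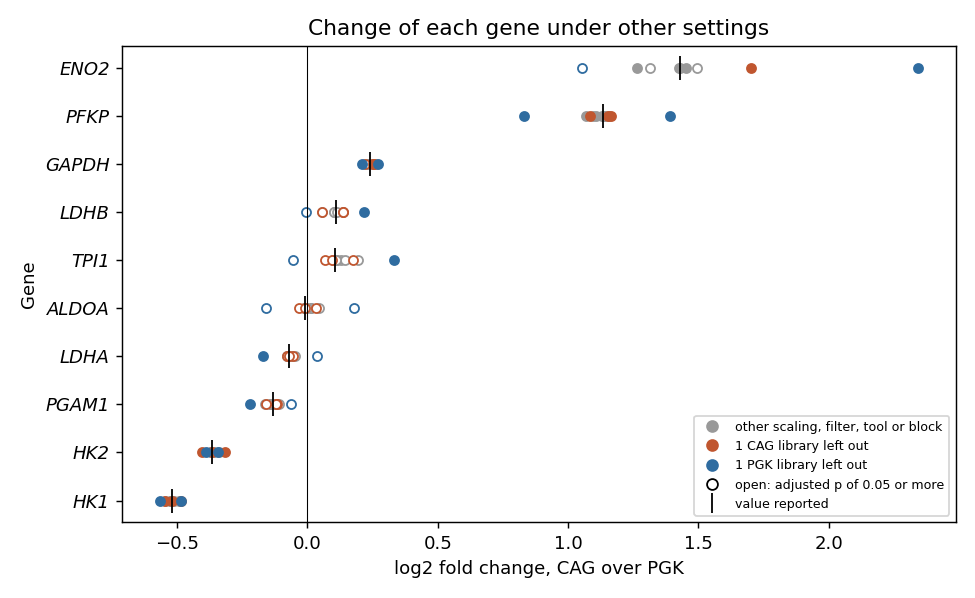
Log2 fold change (CAG over PGK) of each gene as reported (black tick) and under other scalings, filters, tools and a replicate block (grey), or with 1 CAG (orange) or PGK (blue) library left out. Open points had an adjusted p of 0.05 or more. Blue points rest on 1 PGK library, so their fill holds no spread of that line. HK1, HK2 and PFKP keep filled points on their side of 0, whereas ALDOA, TPI1, LDHA and LDHB cross 0.

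HK1, HK2 and PFKP stayed on their side of 0 in each of 12 alternatives. In those with both PGK libraries they also stayed below an adjusted p of 0.05. Their log2 fold changes ran from -0.56 to -0.48 for HK1, from -0.40 to -0.32 for HK2 and from 0.83 to 1.39 for PFKP. For the genes not called, the adjusted p is given for the alternatives with both PGK libraries. It ran from 0.168 to 0.694 for TPI1, 0.142 to 0.358 for PGAM1 and 0.499 to 0.731 for LDHA. For LDHB it ran from 0.14 to 0.781, and for ALDOA from 0.781 to 0.989. The extremes for PFKP came from leaving out PGK replicate 1 and PGK replicate 2.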

How the data were processed

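The authors deposited raw counts, whole numbers for each Ensembl gene. Per the submitters' processing notes, the hg19 build was used with featureCounts 2.0.3, the aligners HISAT2 2.2.1 and Bowtie2 2.5.1, UMI-tools, cutadapt and fastp 0.23.2. Their roles, the annotation, whether strand was used and which gene parts were counted are not stated in the sources used here. Columns were matched to samples by description, and 0 were unmatched. The 18 rows without an identifier (95 counts in all) were left out. edgeR 4.0.16 (R 4.3.3) tested CAG over PGK with no covariate on the 13400 genes kept by filterByExpr (minimum count 10, minimum total 15), after TMM scaling. Standard errors were obtained by dividing the absolute log2 fold change by the root of the F statistic. On simulated counts for these 13400 genes, it recovered 91.0% of 100 genes changed by 1 (log2) and 61.0% of 100 changed by 0.5. It also made 16 false calls. No other genes were changed in the simulation, whereas 43.4% were called in the data, so these rates may not hold there. Alternatives used DESeq2 1.42.0, limma 3.58.1, other scalings and filters, a replicate block and leaving out each library.

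The members and lists were chosen with earlier results of these data known. The text names all 10 members and, for the largest rise and fall, the nearest profiles among genes averaging 5 CPM or more. Lists of other pathway genes, cell markers and 4 of 6 planned paralog pairs were not analysed here, because the RefSeq table used held 0 Ensembl identifiers. Same-numbered libraries of the lines had deviations correlated at 0.04 and -0.07, so numbers were not taken as pairs.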

Additional observations from a re-analysis of the deposited data

Results flagged for a closer look

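The rows without a gene identifier, which no comparison used, held 95 counts over the 5 libraries. No line had 4 libraries, so none was examined for standing apart.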

How the results depend on the processing

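With DESeq2, 3 of the 10 genes were called in place of 5, and 1 in place of 3 was higher. GAPDH (DESeq2 adjusted p = 0.0602) and ENO2 (0.122) lost their calls there, and the cause was not tested. Calls over all genes were also fewer, 3943 of 17286 with DESeq2 against 5818 of 13400 in the main fit. The DESeq2 fit took every gene with any count, without the filter on low counts, so these shares have unlike bases. Leaving out 1 CAG library gave 4 called genes each time. Without CAG replicate 1 GAPDH lost its call, and without CAG replicate 2 or CAG replicate 3 ENO2 was not tested. Over all genes tested, 4754 of 13306 were called without CAG replicate 1. Without CAG replicate 2 it was 4986 of 13293, and without CAG replicate 3 it was 4999 of 13259. Calls without a PGK library are not counted here, because such fits keep 1 library of that line. With the replicate block 4 genes were called, 2 higher and 2 lower, beside 4667 of 13400 over all genes tested. ENO2 lost its call with this block (log2 fold change 1.32, edgeR adjusted p = 0.0592), and no other member's call changed. ALDOA, never called, changed sign with upper-quartile factors (0.014), limma-trend (0.016) and the replicate block (0.046). With 1 library left out, log2 fold changes ran from -0.157 to 0.180 for ALDOA, -0.053 to 0.334 for TPI1, -0.169 to 0.038 for LDHA and -0.005 to 0.219 for LDHB. The log2 difference in the LDHA to LDHB ratio ran from -0.386 to 0.046, and that in HK2 to HK1 from 0.086 to 0.223. The log2 ratio of the summed levels was 0.002, and -0.031 without LDHB. Between 4 and 5 genes lay within the quartiles of their neighbours under the settings run; without CAG replicate 2 or CAG replicate 3 this was not computed, since ENO2 was not tested. The planned comparisons of pathway lists were not run. Depth limits ENO2 most: its SE was 0.50 (log2), against 0.07 to 0.13 for the other 9 genes.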
